A study of Mus musculus with 4 samples.

Results

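Binding of TLE3, a transcriptional corepressor of the Groucho family, was described at 9 genes of adrenergic receptors and cyclic AMP (cAMP) signalling in cultured adipocytes of 3 mouse fat depots. The genes were the β-adrenergic receptors Adrb1 and Adrb3, the α-adrenergic receptors Adra1a, Adra1b and Adra2a, the G protein gene Gnas, the adenylyl cyclase Adcy3, and the phosphodiesterases Pde3b and Pde4d. A region belonged to the set when the authors' annotation named one of these genes as having the nearest transcription start site, at any distance. The set held 95 of the 69599 regions on the authors' lists, with 39 within 50 kb of the start site and 56 farther away. A region entered the lists by passing a limit in at least 1 depot, so the presence of TLE3 reads in a region is no finding by itself.

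The series has 4 libraries, a TLE3 chromatin immunoprecipitation (ChIP-seq) library each from brown (BAT), epididymal white (eWAT) and inguinal white (iWAT) adipocytes, and an input library from iWAT adipocytes. Stromal-vascular cells came from male NMRI mice 4 to 5 weeks old, pooled from 10 to 15 animals, and the brown fat itself joined interscapular, cervical and axillary tissue. All cultures received 30 nM insulin and 1 µM rosiglitazone, an agonist of the nuclear receptor PPARγ, and were taken on day 8, with cultures at over 50% differentiation used. Crosslinking used disuccinimidyl glutarate (2 mM, 15 min) followed by formaldehyde (1%, 30 min) in all of them. No animal carried an engineered allele according to the labels used here, and no adrenergic agonist is named among the additions to the medium. With 1 library for each depot, an effect of depot and one of library cannot be told apart, and each test below compares the reads of 2 libraries with counting error only. In a culture of mixed cells, fewer cells with a bound region and less binding per cell cannot be told apart either.

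Noradrenaline released by sympathetic nerves acts on fat cells through these receptors. The β receptors couple to the stimulatory G protein made by Gnas, which turns on adenylyl cyclase. The cAMP that it makes activates protein kinase A, which drives lipolysis and, in brown fat, heat production. Adra2a couples to inhibitory G proteins and lowers cAMP, and Adra1a and Adra1b act through phospholipase C and calcium. Phosphodiesterases end the signal by breaking cAMP down. TLE3 does not bind DNA itself and is brought to chromatin by other factors, and in adipocytes it is known as a partner of PPARγ that acts for the white against the brown program.

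Values are scaled reads, the reads in a region of 230 bp as the authors scaled them to one library total. One read was worth 2.77 scaled reads in BAT, against 0.883 in eWAT and 0.526 in iWAT, over an input of 0.651. If the common total was 10 M reads, an assumption, BAT had 3.62 M reads, eWAT 11.3 M, iWAT 19.0 M and the input 15.4 M. A region with 0 reads may hold up to 3, which is 8.30 scaled reads in BAT, against 2.65 in eWAT and 1.58 in iWAT. A region on a depot's list had 15 scaled reads or more there, and no less than 10 times the input value, but 9 regions past both limits in eWAT were not on its list. The markers of adipocytes, Pparg, Adipoq, Fabp4, Plin1, Cd36, Lpl and Cebpa, and of brown adipocytes, Ucp1, Cidea, Dio2 and Ppargc1a, all carried regions on the lists, but TLE3 binding at a gene is not its expression and does not check the cell type. At Ucp1, the uncoupling protein of brown fat, regions within 50 kb summed to 113 scaled reads in BAT, against 212 in eWAT and 178 in iWAT. The sums were 99.5, 72.4 and 96.2 at Cidea in that order, 47, 81.2 and 131 at Dio2, and 144, 325 and 265 at Ppargc1a. The order depends on the scale. Calls, relative to the median gene as explained below, were made on sums over all distances and not on those within 50 kb. Over all distances Ppargc1a summed to 398 in BAT, against 770 in eWAT and 532 in iWAT. Dio2 summed to 257 in BAT, against 561 and 421 in that order. On these sums Cidea was called higher in BAT over both white depots and Ppargc1a over iWAT only. Ucp1 and Dio2 were called in neither comparison.

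Promoter sequences were available for 6 of the 9 genes, from RefSeq on GRCm38.p6, with 11 promoters of 250 bases before to 50 after the start site. The letters TGACGTCA, the cAMP response element bound by CREB, were in 0 of the 11 on either strand, and 1.79% of all 32851 promoters held them. The C/EBP letters TTGCNNAA, for factors that act early in fat cell differentiation, were in 1 of the 11, and 10.8% of all promoters held them. The letters chosen for early B cell factor, nuclear receptor direct repeats and nuclear factor I were in 0 of the 11, against 0.904%, 0.0396% and 0.0365% of all promoters in that order. The promoter with the C/EBP letters and that of Adrb1 are shown because they belong to the α and β receptor genes with the highest summed values, and capitals mark the match, which reads TTGCNNAA on the opposite strand.
Adra1b promoter, chr11:43901188-43901487, minus strand: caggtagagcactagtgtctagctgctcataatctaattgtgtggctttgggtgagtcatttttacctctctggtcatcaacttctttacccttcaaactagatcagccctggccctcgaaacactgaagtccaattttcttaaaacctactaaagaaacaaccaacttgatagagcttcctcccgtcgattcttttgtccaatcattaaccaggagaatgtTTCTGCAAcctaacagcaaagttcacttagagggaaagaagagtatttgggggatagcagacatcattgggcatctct
Adrb1 promoter, chr19:56721867-56722166, plus strand: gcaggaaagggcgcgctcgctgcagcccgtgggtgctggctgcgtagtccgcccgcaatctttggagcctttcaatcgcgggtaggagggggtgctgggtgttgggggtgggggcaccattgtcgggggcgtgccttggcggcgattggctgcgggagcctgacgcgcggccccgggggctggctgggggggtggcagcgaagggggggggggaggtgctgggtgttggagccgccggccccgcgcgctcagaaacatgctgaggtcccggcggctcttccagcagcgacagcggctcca
A match of letters is a description and not a binding site. The deposited coordinates below are on mm9, so these sequences were not placed against the regions, and the sequences of the regions themselves were not analysed here.

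Like most regions of the series, the TLE3 regions of these genes lay away from promoters. The annotation placed 44 of the 95 in introns (46.3%, against 45.4% of all regions), 49 between genes (51.6%, against 49.7%), 1 in a 5′ UTR, 1 in a 3′ UTR and 0 in a promoter, where 2.10% of all regions lay. The region nearest to any start site was at Adrb3, 877 bp away, and it was the only one of the 95 within 1 kb (1.05%, against 3.02% of all regions). The median distance was 71.1 kb, against 38.5 kb over all regions. The number of regions per gene ran from 1 at Gnas to 23 at Adra1b, against a median of 3 over the 14265 genes with a region. Only 285 genes had more regions than Adra1b, 409 more than Adra1a and 468 more than Pde4d. At the 50 kb limit, a region of Adra1b at 49.2 kb fell inside, and regions at 51.2 kb of Adra1b and 51.6 kb of Pde3b fell outside.

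**Figure D1:**
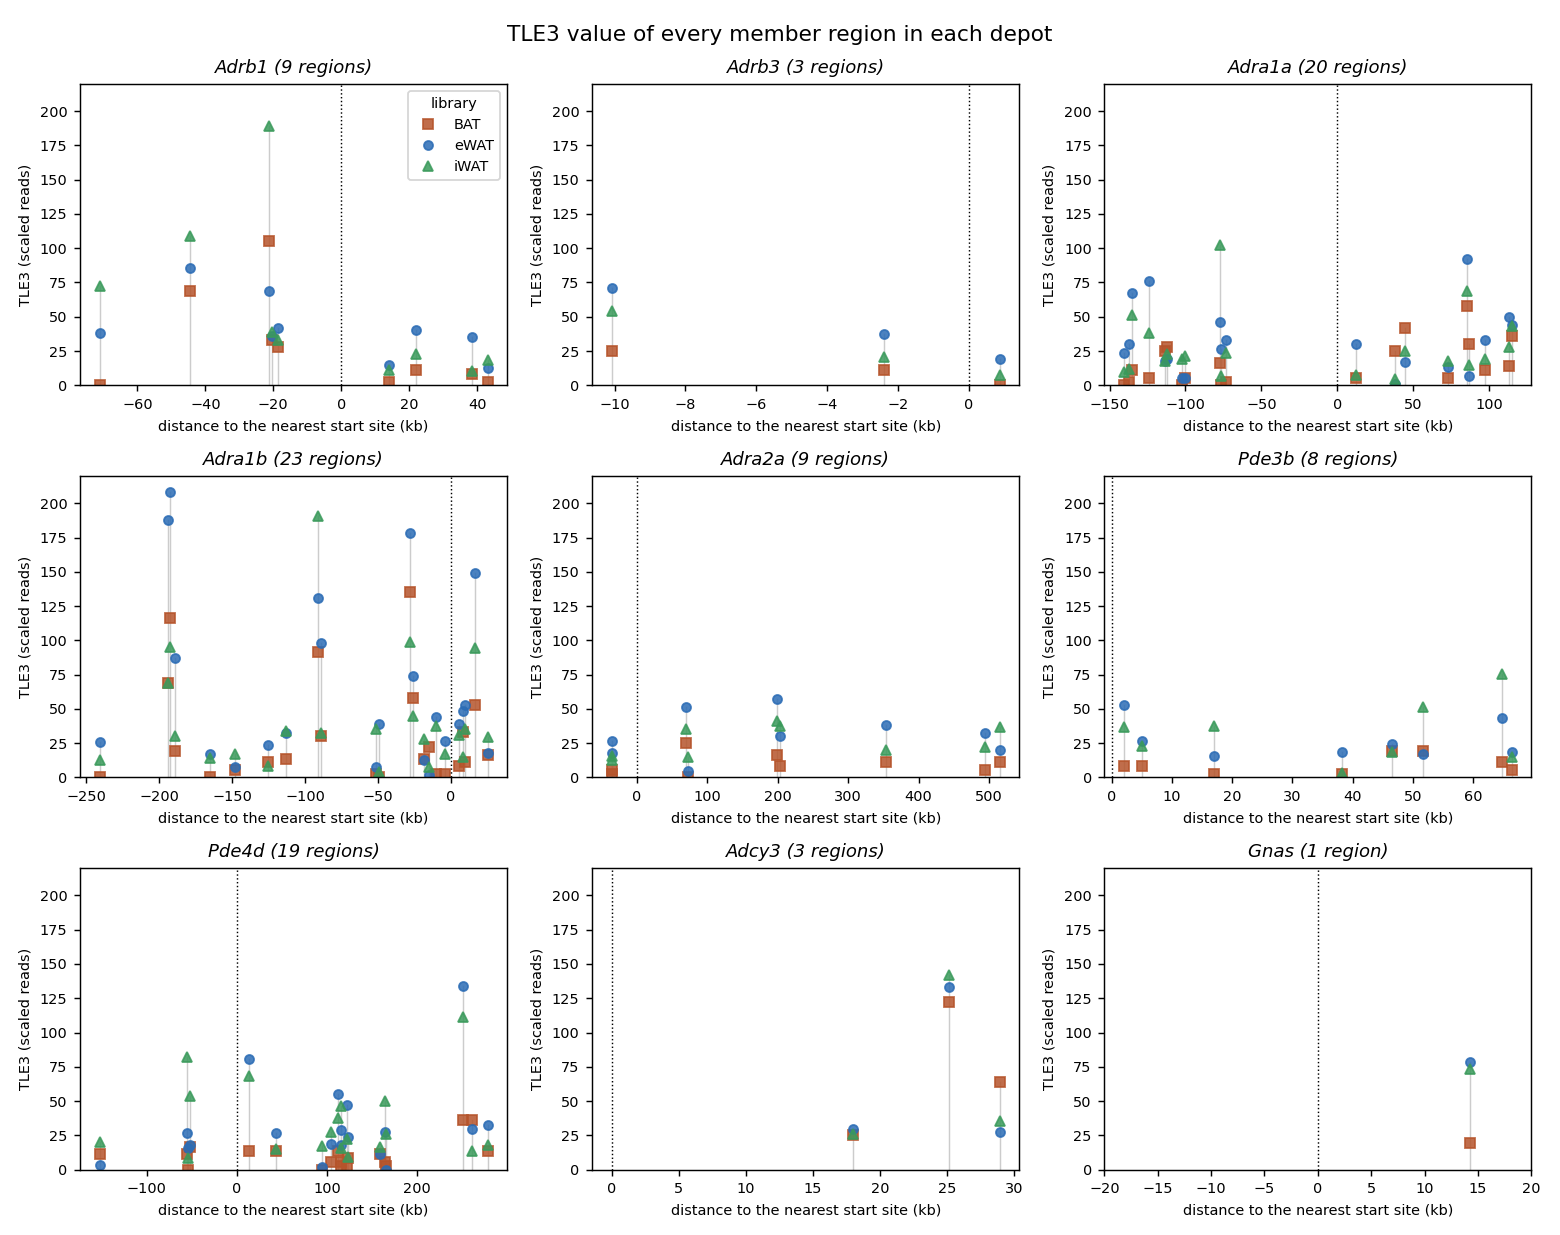
TLE3 value in scaled reads (vertical axis) of each of the 95 regions against its signed distance to the nearest start site in kb (horizontal axis), 1 panel per gene, with squares for BAT, circles for eWAT and triangles for iWAT. The highest point is the Adra1b region 192 kb upstream, at 208 scaled reads in eWAT, and most regions of every panel stand at a distance from the dotted start site.

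Of the 95 regions, 32 were on the BAT list (33.7%, against 21.6% of all regions), 77 on the eWAT list (81.1%, against 73.3%) and 67 on the iWAT list (70.5%, against 72.5%). All 3 lists shared 24 regions (25.3%, against 15.9%). Regions of 1 list alone numbered 4 for BAT (4.21%, against 3.14% of all regions), 21 for eWAT (22.1%, against 23.2%) and 13 for iWAT (13.7%, against 22.1%). All 4 regions listed in BAT alone were at the α1 receptor genes, 3 in introns of Adra1a and 1 in an intron of Adra1b. Adra1a held 20 and Adra1b 23 of the 95 regions, and a preference for these genes was not tested. Listing follows depth and the input as well as TLE3, as far as the values show. The regions that reached 15 scaled reads in a depot but were off its list numbered 3 in BAT, 3 regions in eWAT and 8 regions in iWAT, and all were under 10 times the input. The median region had 11.1 scaled reads in BAT, against 30.0 in eWAT and 26.3 in iWAT, over an input of 1.30, against 8.30, 26.5, 27.3 and 1.30 over all regions. Summed over the 95 regions, TLE3 was 12.2 times the input in BAT, 25.3 times in eWAT and 22.4 times in iWAT, and this input is matched only to iWAT.

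**Figure D2:**
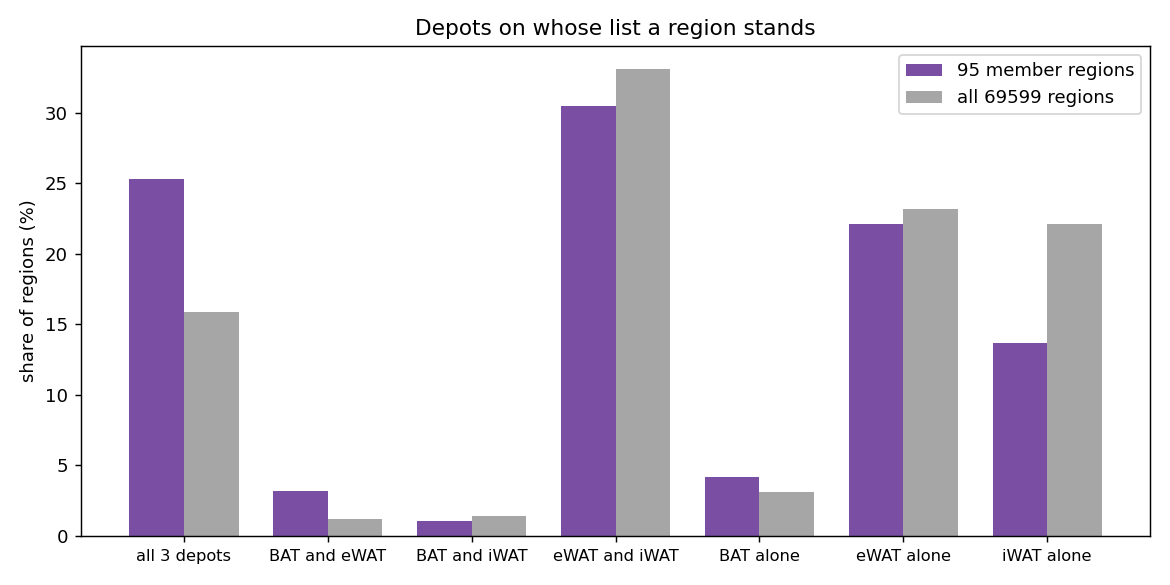
Share of regions in percent (vertical axis) by the depots on whose lists a region stands (horizontal axis), for the 95 regions of the 9 genes and for all 69599 regions. The bar for all 3 depots is at 25.3% for these genes and 15.9% for all regions, and the bar for iWAT alone is at 13.7%, against 22.1%.

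The ratios that involve BAT depend on the scale they are given on. On the authors' scale the BAT value was below the others at most regions, with a median log2 ratio over the strongest 25% of regions of −1.41 against eWAT and −1.46 against iWAT, and of 0.13 for eWAT over iWAT. Ratios of regions below are given relative to those medians, and ratios of genes relative to the median gene. A region or gene was called higher or lower where the exact binomial test, with Benjamini-Hochberg adjustment over all 69599 regions or 14265 genes, gave an adjusted p under 0.05 and the log2 ratio was past 1 in size. A region entered the set through the depots that list it, so its ratios of those depots over the others lean that way by selection.

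With BAT over eWAT, 13 of the 95 regions were called higher (13.7%, against a background of 8.51%) and 1 was called lower (against 3.46%). With BAT over iWAT, 15 were higher (15.8%, against 9.35%) and 1 was lower (against 3.21%). These splits turn with the scale. On the authors' own scale, 5 regions were higher (5.26%, against 2.98% of all regions) and 40 lower (42.1%, against 43.8%) with BAT over eWAT. With BAT over iWAT on that scale 3 were higher (3.16%, against 2.84%) and 32 lower (33.7%, against 46.3%). With eWAT over iWAT, 15 regions were higher (15.8%, against 16.1%) and 17 lower (17.9%, against 23.7%), and 14 and 15 of them held under all 4 scalings. The share called between eWAT and iWAT was near the background in the higher direction and below it in the lower one.

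For whole genes, reads were summed over all regions of the gene, which gives genes with more regions a higher sum. With eWAT over iWAT, 0 of the 9 genes were called in either direction, against 10.4% of all genes higher and 11.5% lower, although Adrb1, Adrb3, Adra1b, Pde3b and Pde4d had an adjusted p under 0.05 at less than the 2-fold limit. With BAT over eWAT, Adrb1 and Adcy3 were called higher (11.3% of all genes were) and 0 lower (5.87%). With BAT over iWAT, Adra1b and Adcy3 were called higher (13.2%) and 0 lower (5.07%). On the authors' scale 0 genes were higher in BAT (1.90% of all genes) and 6 were lower against eWAT (66.5%), and 0 were higher (1.97%) and 5 lower against iWAT (60.8%). The median log2 ratio of the 9 genes was 0.12 for BAT over eWAT (0.10 over all genes), 0.39 for BAT over iWAT (0.14) and −0.05 for eWAT over iWAT (0.00).

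**Figure D3:**
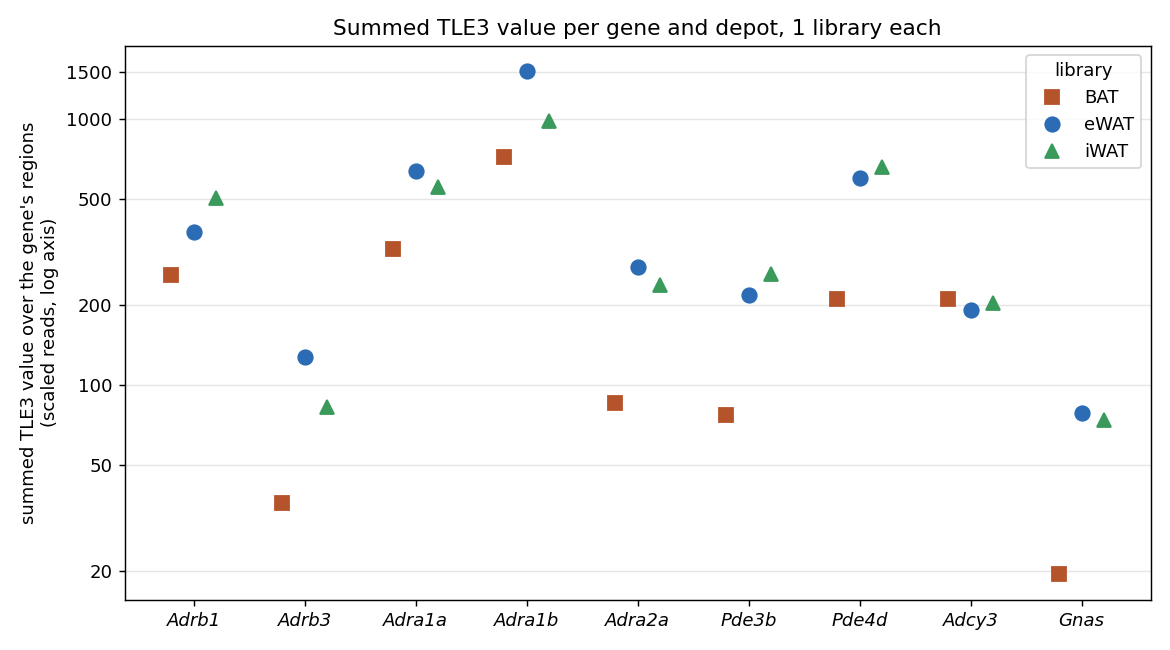
Summed TLE3 value over all regions of a gene in scaled reads (vertical log axis) for the 9 genes (horizontal axis), with 1 library per depot and no error bar. The BAT point is the lowest of the 3 at every gene but Adcy3, where the points stand at 210 in BAT, against 191 in eWAT and 203 in iWAT.

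**Figure D4:**
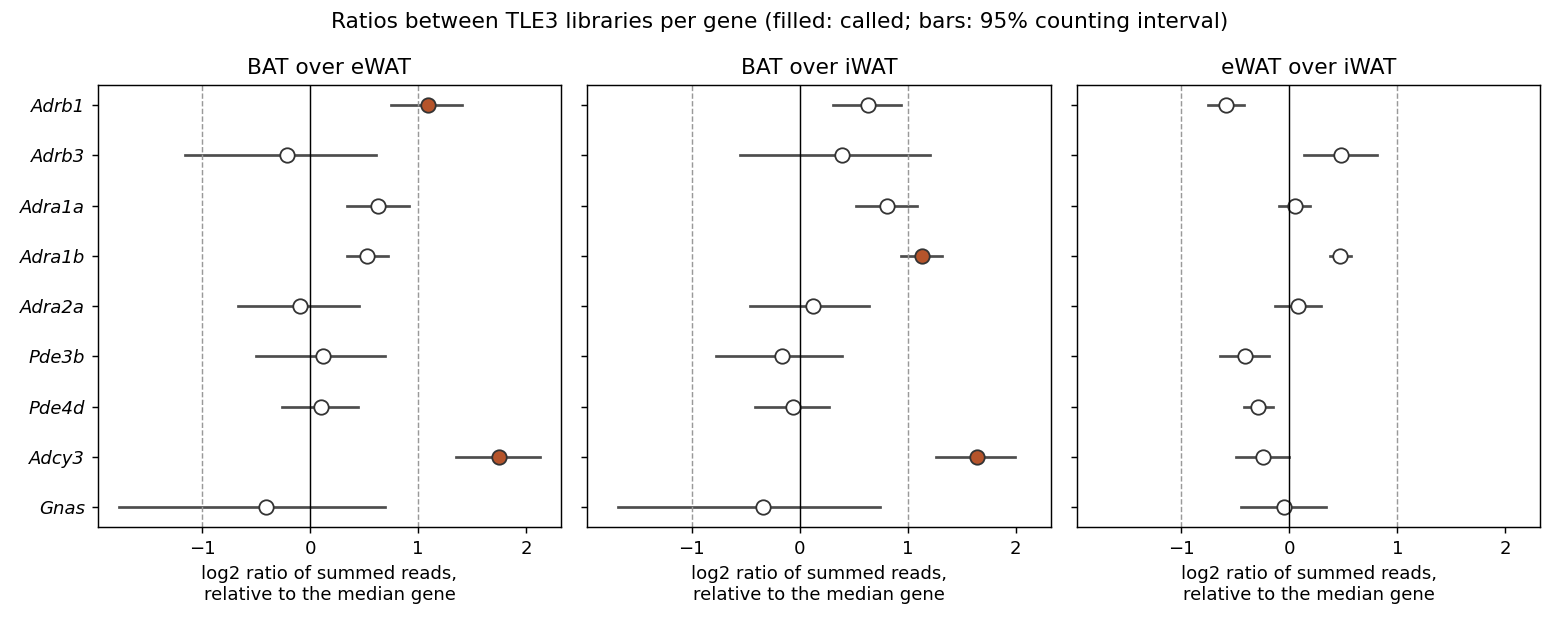
Log2 ratio of summed reads relative to the median gene (horizontal axis) for BAT over eWAT, BAT over iWAT and eWAT over iWAT, 1 row per gene, with 95% counting intervals as bars and called genes filled. Adcy3 is at 1.75 and 1.64 in the BAT panels, but on the authors' scale at 0.14 and 0.05, and there Adrb1 (BAT over eWAT) and Adra1b (BAT over iWAT) turn to −0.52 and −0.46.

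Adrb1 encodes the β1 receptor, which raises cAMP in response to noradrenaline. It had 9 regions, all between genes, and their summed value was 260 scaled reads in BAT, against 374 in eWAT and 505 in iWAT, over an input of 21.5. BAT was lowest and iWAT highest. Relative to the median gene, the log2 ratio was 1.09 for BAT over eWAT (95% interval 0.75 to 1.41, exact adjusted p = 3.39e-08 by the exact binomial test) and 0.63 for BAT over iWAT (0.31 to 0.94, exact adjusted p = 0.000868). These were −0.52 and −0.96 on the authors' scale. The ratio for eWAT over iWAT was −0.58 (−0.75 to −0.42, exact adjusted p = 1.59e-11).

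The strongest Adrb1 region, chr19:56775467-56775697 on mm9, lay 21.3 kb upstream of the start site. It had 105 scaled reads in BAT, against 68.9 in eWAT and 189 in iWAT. Its input of 7.81, shared with an Adra1b region 88.9 kb upstream, was the highest of the 95 regions. The iWAT value was the highest and the eWAT value the lowest, with a log2 ratio of 2.02 for BAT over eWAT (exact adjusted p = 1.98e-08; 0.61 and not called on the authors' scale, exact adjusted p = 0.0716) and −1.59 for eWAT over iWAT (exact adjusted p = 1.79e-20). This region was off the eWAT list, with a value there under 10 times the input. A farther region, 71.1 kb upstream at chr19:56725613-56725843, had 0 reads in BAT, 38.0 scaled reads in eWAT and 72.5 scaled reads in iWAT, over an input of 0. The log2 ratio for BAT over iWAT was at most −1.67 with BAT set to 3 reads, and this was the only one of the 95 regions called lower in BAT against iWAT under all 4 scalings. For eWAT over iWAT it was −1.07, and −0.93 on the authors' scale, where it is not called.

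Of the 4 regions downstream of Adrb1, 1 was called between the white depots, in favour of eWAT. This region, 38.5 kb downstream, had 8.30 scaled reads in BAT, against 35.3 in eWAT and 10.5 in iWAT, and its log2 ratio was 1.62 for eWAT over iWAT (exact adjusted p = 0.000115). The region nearest to the start site, 14.0 kb downstream, had 2.77 scaled reads in BAT, against 15.0 in eWAT and 11.0 in iWAT, and it was called in no comparison. The region 43.1 kb downstream had the other order, with 2.77 scaled reads in BAT, against 12.4 in eWAT and 18.4 in iWAT, and no call. Of the 4 downstream regions 0 were on the BAT list, and 4 of the 5 upstream regions were, against 21.6% of all regions. With so few regions this split is a description only and was not tested.

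Adrb3 encodes the β3 receptor, the main β receptor of rodent fat cells. Its 3 regions summed to 35.9 scaled reads in BAT, against 127 in eWAT and 82.5 in iWAT, over an input of 3.25. The eWAT value was the highest and BAT rested on 13 reads. The log2 ratio was −0.21 for BAT over eWAT (−1.16 to 0.61, exact adjusted p = 0.906, and −1.82 on the authors' scale), 0.39 for BAT over iWAT (−0.55 to 1.21, exact adjusted p = 0.534, and −1.20 on the authors' scale) and 0.48 for eWAT over iWAT (0.14 to 0.81, exact adjusted p = 0.00983). The BAT intervals are wide enough to hold a 2-fold difference in one direction.

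The strongest Adrb3 region, chr8:28350029-28350259, lay 10.1 kb upstream and had 24.9 scaled reads in BAT, against 70.6 in eWAT and 54.1 in iWAT, over an input of 1.95. It was on all 3 lists and was called in no comparison, although BAT was called lower on the authors' scale, at −1.51 over eWAT and −1.12 over iWAT. The nearest one, chr8:28339068-28339298, covers a 5′ UTR exon 877 bp downstream of the start site, and it had 0 reads in BAT, 19.4 scaled reads in eWAT and 7.88 scaled reads in iWAT, over an input of 1.30. It was listed in eWAT only and was higher in eWAT than in iWAT, with a log2 ratio of 1.17 (exact adjusted p = 0.035). BAT could hold up to 8.30 scaled reads unseen. With BAT set to 3 reads the log2 ratio over eWAT was at most 0.18 and was not called, and on the authors' scale it was at most −1.23 and was called lower, so that call depends on the scale.

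Adra1a and Adra1b encode α1 receptors, which signal through calcium rather than cAMP. At Adra1a, 20 regions summed to 324 scaled reads in BAT, against 636 in eWAT and 554 in iWAT, over an input of 30.6. Over all regions the log2 ratio was 0.63 for BAT over eWAT (0.34 to 0.92), 0.81 for BAT over iWAT (0.52 to 1.09) and 0.05 for eWAT over iWAT (−0.09 to 0.19), and none was called. On the authors' scale the first and second of these were −0.97 and −0.78. Within 50 kb the picture differed. The 3 regions there summed to 71.9 scaled reads in BAT, against 47.7 in eWAT and 37.8 in iWAT, so that BAT was highest on the authors' scale too, though by less than 2-fold, and relative to the median gene the log2 ratio of 2.26 over eWAT (1.52 to 2.96) and 2.52 over iWAT (1.81 to 3.18) was called higher.

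With BAT over eWAT, 5 of the 20 Adra1a regions were called higher, against 8.51% of all regions. Of these 5 regions, 3 lay in introns and a pair between genes. The intron region 37.8 kb downstream, chr14:67291727-67291957, had 24.9 scaled reads in BAT, against 0.88 in eWAT and 4.73 in iWAT, over an input of 0.65, which is 9, 1, 9 and 1 reads. Its log2 ratio was 6.23 for BAT over eWAT (3.38 to 11.68) and 3.85 for BAT over iWAT (2.34 to 5.36), both called higher under all 4 scalings. The wide intervals come with these few reads. The region was on the BAT list alone, so its BAT value brought it into the set, and the scalings are no independent check.

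The region 44.8 kb downstream had 41.5 scaled reads in BAT, against 16.8 in eWAT and 25.2 in iWAT, with log2 ratios of 2.72 and 2.17 for BAT over the white depots in that order, the second being 0.72 and not called on the authors' scale. The region 87.0 kb downstream had 30.4 in BAT, against 7.06 in eWAT and 14.7 in iWAT, with log2 ratios of 3.52 and 2.50, the second again not called on the authors' scale, at 1.05. These 3 intron regions were on the BAT list alone, although the one at 44.8 kb reached 15 scaled reads in all depots. Their BAT values brought them into the set, so ratios that favour BAT there follow in part from that selection. Between them, the strongest Adra1a region, at 85.3 kb, had 58.1 scaled reads in BAT, against 91.8 in eWAT and 68.8 in iWAT, and was on every list. Its ratio for BAT over iWAT was 1.21, or −0.25 on the authors' scale.

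The pair between genes, upstream of Adra1a, was on all 3 lists and had its highest value in BAT. At 113 kb it had 24.9 scaled reads in BAT, against 17.7 in eWAT and 17.9 in iWAT, with log2 ratios of 1.91 and 1.93 for BAT over the white depots in that order. At 112 kb it had 27.6 scaled reads in BAT, against 19.4 in eWAT and 23.1 in iWAT, with log2 ratios of 1.92 and 1.71. These ratios were 0.49, 0.48, 0.51 and 0.26 on the authors' scale, and none was called there.

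Further Adra1a regions had their highest value in a white depot. The region nearest to the start site, 12.6 kb downstream, had 5.53 scaled reads in BAT, against 30.0 in eWAT and 7.88 in iWAT, and was higher in eWAT than in iWAT with a log2 ratio of 1.80 (exact adjusted p = 0.000114). Of the 11 regions upstream, the one at 124 kb had 5.53 scaled reads in BAT, against 75.9 in eWAT and 37.8 in iWAT, and was the only one of the 95 called lower in BAT against eWAT relative to the strongest regions, at −2.37 (−5.44 to −0.47). A pair of upstream regions less than 1 kb apart had opposite orders in the white depots. At 77.4 kb the values were 16.6 scaled reads in BAT, against 45.9 in eWAT and 102 in iWAT (eWAT over iWAT −1.29), and at 76.5 kb they were 0 in BAT, against 26.5 in eWAT and 6.83 in iWAT (1.82).

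At Adra1b, 23 regions summed to 716 scaled reads in BAT, against 1511 in eWAT and 984 in iWAT, over an input of 55.3, the highest sum of the 9 genes in every depot. The gene was higher in BAT than in iWAT relative to the median gene, with a log2 ratio of 1.13 (0.94 to 1.32, exact adjusted p = 1.18e-24), which was −0.46 on the authors' scale. For BAT over eWAT it was 0.53 (0.34 to 0.72), or −1.08 on the authors' scale, and for eWAT over iWAT it was 0.47 (0.38 to 0.57). Distances at Adra1b refer to more than 1 annotated start site of the gene.

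The strongest Adra1b region, chr11:43906865-43907095, lay 192 kb upstream with 116 scaled reads in BAT, against 208 in eWAT and 95.1 in iWAT, over an input of 5.21. Another, 28.1 kb upstream, had 135 scaled reads in BAT, against 178 in eWAT and 98.8 in iWAT, and 135 was the highest BAT value of the 95 regions. Both were higher in BAT than in iWAT, with log2 ratios of 1.74 and 1.91 in that order, and on the authors' scale they were 0.29 and 0.46 and not called. With eWAT over iWAT the region at 192 kb sat at 1.00, on the limit for a call.

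Further Adra1b regions include those picked for the largest called ratios, and such extremes differ more between libraries than a sum must. The regions at 15.0 kb and 49.2 kb were on the BAT list alone and the eWAT list alone, in that order. Their ratios follow in part from how they entered the set. An intron region 15.0 kb upstream of a start site of the gene had 22.1 scaled reads in BAT, against 1.77 in eWAT and 7.36 in iWAT, which is 8, 2 and 14 reads, and its log2 ratio was 5.06 for BAT over eWAT (2.73 to 8.33) and 3.04 for BAT over iWAT (1.58 to 4.40). The region 49.2 kb upstream had 0 reads in BAT, 38.9 scaled reads in eWAT and 4.20 scaled reads in iWAT, and its log2 ratio for eWAT over iWAT, 3.08 (1.97 to 4.37, exact adjusted p = 4.45e-10), was the highest among the 95. At 8.56 kb downstream an intron region had 33.2 scaled reads in BAT, against 48.6 in eWAT and 15.2 in iWAT, and iWAT was the lowest (eWAT over iWAT 1.54, BAT over iWAT 2.58, the second being 1.12 and not called on the authors' scale). The region nearest to a start site, 4.22 kb away in an intron, had 2.77 scaled reads in BAT, against 26.5 in eWAT and 17.3 in iWAT, and was called in no comparison.

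Adra2a encodes the α2A receptor, which lowers cAMP and restrains lipolysis. Its 9 regions summed to 85.7 scaled reads in BAT, against 278 in eWAT and 238 in iWAT, over an input of 10.4, and none of the log2 ratios was called, at −0.09 for BAT over eWAT (−0.67 to 0.45), 0.12 for BAT over iWAT (−0.46 to 0.64, and −1.47 on the authors' scale) and 0.08 for eWAT over iWAT (−0.13 to 0.29). Of the 9 regions 7 lay more than 50 kb away, up to 515 kb. The pair within 50 kb lay in introns of Shoc2, another gene, and the nearer of them, at 34.1 kb, had 2.77 scaled reads in BAT, against 17.7 in eWAT and 15.8 in iWAT. The strongest region, 199 kb downstream, had 16.6 scaled reads in BAT, against 57.4 in eWAT and 41.5 in iWAT. A single region was called, 72.7 kb downstream, with 0 reads in BAT, 4.42 scaled reads in eWAT and 15.2 scaled reads in iWAT, and a log2 ratio of −1.92 for eWAT over iWAT (exact adjusted p = 0.00631).

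Gnas, the stimulatory G protein gene, had 1 region, chr2:174169705-174169935 in an intron 14.2 kb downstream of the nearest start site. It had 19.4 scaled reads in BAT, against 78.6 in eWAT and 73.6 in iWAT, over an input of 5.21. The white depots were close to each other and BAT was lower on the authors' scale, and the region was off the BAT list, with a BAT value 3.72 times the input (1.15 to 11.7). Relative to the median gene the log2 ratio was −0.41 for BAT over eWAT (−1.77 to 0.69, exact adjusted p = 0.775), −0.34 for BAT over iWAT (−1.68 to 0.74, exact adjusted p = 0.883) and −0.05 for eWAT over iWAT (−0.45 to 0.34, exact adjusted p = 0.885). BAT rested on 7 reads here, and its intervals hold a 2-fold lower value.

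Adcy3, which makes cAMP, was the gene with the highest value per region in BAT. Its 3 regions, all in the first intron, averaged 70.1 scaled reads in BAT, against 63.6 in eWAT and 67.8 in iWAT, and the mean per region of the other 8 genes in BAT ran from 9.53 at Adra2a to 31.1 at Adra1b. The sum was 210 scaled reads in BAT, against 191 in eWAT and 203 in iWAT, over an input of 5.86, so the depots were level on the authors' scale. Relative to the median gene, Adcy3 was higher in BAT, with a log2 ratio of 1.75 over eWAT (1.35 to 2.13, exact adjusted p = 2.18e-14) and 1.64 over iWAT (1.26 to 1.99, exact adjusted p = 8.17e-14). On the authors' scale these ratios were 0.14 and 0.05. For eWAT over iWAT the ratio was −0.24 (−0.49 to 0.00, exact adjusted p = 0.0829).

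All 3 Adcy3 regions were on all 3 lists. The strongest, chr12:4159193-4159423 at 25.2 kb, had 122 scaled reads in BAT, against 133 in eWAT and 142 in iWAT, over an input of 2.60, and its log2 ratio for BAT was 1.28 over eWAT and 1.23 over iWAT, or −0.13 and −0.22 on the authors' scale. The region at 28.9 kb, chr12:4162959-4163189, had 63.6 scaled reads in BAT, against 27.4 in eWAT and 35.2 in iWAT, over an input of 1.30. BAT was highest there on the authors' scale too, and the log2 ratio was 2.63 over eWAT (1.78 to 3.45, exact adjusted p = 1.85e-07) and 2.31 over iWAT (1.56 to 3.01, exact adjusted p = 5.61e-07), the second being 0.85 and not called on the authors' scale. The nearest region, at 18.0 kb, had 24.9 scaled reads in BAT, against 30.0 in eWAT and 26.3 in iWAT, with no call. A further 2 regions inside Adcy3 have their nearest start site at Ptrhd1, with 63.6 scaled reads in BAT, against 172 in eWAT and 172 in iWAT in all. With them the log2 ratio was 1.20 for BAT over eWAT and 1.13 over iWAT, still called higher.

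Pde3b encodes the phosphodiesterase through which insulin lowers cAMP in fat cells. Its 8 regions, all in the first intron, summed to 77.4 scaled reads in BAT, against 217 in eWAT and 261 in iWAT, over an input of 7.81. No ratio was called, at 0.12 for BAT over eWAT (−0.50 to 0.69, and −1.49 on the authors' scale), −0.16 for BAT over iWAT (−0.77 to 0.39) and −0.41 for eWAT over iWAT (−0.64 to −0.19). The strongest region, 64.8 kb downstream, had 11.1 scaled reads in BAT, against 43.3 in eWAT and 75.2 in iWAT. The nearest, at 1.99 kb, had 8.30 in BAT, against 53.0 in eWAT and 36.8 in iWAT.

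Regions within the same Pde3b intron had opposite orders in the white depots. At 38.2 kb the value was 2.77 scaled reads in BAT, against 18.5 in eWAT and 3.15 in iWAT, and the log2 ratio was 2.42 for eWAT over iWAT (exact adjusted p = 0.000304). At 51.6 kb it was 19.4 in BAT, against 16.8 in eWAT and 51.5 in iWAT, a ratio of −1.75 (exact adjusted p = 5.06e-07), and at 16.9 kb it was 2.77 in BAT, against 15.9 in eWAT and 37.3 in iWAT, a ratio of −1.36 (exact adjusted p = 0.000454). These calls held under all 4 scalings, though the region at 38.2 kb was on the eWAT list alone and entered the set through it.

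Pde4d encodes a cAMP-specific phosphodiesterase from a very long gene. Its 19 regions summed to 210 scaled reads in BAT, against 599 in eWAT and 660 in iWAT, over an input of 18.9, with log2 ratios of 0.10 for BAT over eWAT (−0.26 to 0.44), −0.06 for BAT over iWAT (−0.41 to 0.27) and −0.29 for eWAT over iWAT (−0.42 to −0.15). On the authors' scale the ratios with BAT were −1.51 and −1.65. The strongest region, chr13:109695434-109695664 in the second intron, 251 kb downstream, had 36.0 scaled reads in BAT, against 134 in eWAT and 111 in iWAT, over an input of 0.65. The nearest, at 13.1 kb, had 13.8 in BAT, against 80.4 in eWAT and 68.3 in iWAT.

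With eWAT over iWAT, 6 of the 19 Pde4d regions were lower and 2 higher, against 23.7% and 16.1% of all regions. The region 166 kb downstream had 2.77 scaled reads in BAT, against 0 in eWAT and 26.3 in iWAT, and the log2 ratio was at most −3.44 with eWAT set to 3 reads. At 94.8 kb the values were 0 in BAT, against 1.77 in eWAT and 17.3 in iWAT, a ratio of −3.43 (−6.53 to −1.46) on 2 eWAT reads. The region at 261 kb, near the strongest, had 36.0 scaled reads in BAT, against 30.0 in eWAT and 13.7 in iWAT, with a ratio of 2.85 for BAT over iWAT (1.77 to 3.86, exact adjusted p = 1.94e-05) that held under all 4 scalings. In addition, 1 pair of Pde4d regions overlapped and so shared reads.

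The nearest start site leaves out most regions inside Pde4d. Another 46 regions annotated inside it were assigned to the microRNA genes Mir582 (26 regions) and Mir1904 (20 regions), which have start sites closer by. They summed to 871 scaled reads in BAT, against 2017 in eWAT and 1777 in iWAT, more than the 19 regions counted for Pde4d itself. With them added, the log2 ratio of Pde4d was 0.34 for BAT over eWAT, 0.42 for BAT over iWAT and −0.04 for eWAT over iWAT, and it was still called in no comparison. Over all members 50 regions were assigned this way, with 1 more each inside Adra1a and Adra1b.

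Among all genes, those whose pattern over the 3 TLE3 libraries was nearest to Adrb1 were Nrbf2, Fmod and Xirp2, at distances of 0.0152, 0.0233 and 0.0360 in log2 values less their own mean, among 1758 genes with at least 50 reads and a like number of regions. Nrbf2, for example, summed to 185 scaled reads in BAT, against 270 in eWAT and 362 in iWAT. Nearest to Adrb3 among 8542 genes were Hint3, Trim25 and Ms4a6c, at 0.00789, 0.0149 and 0.0182. Trim25 summed to 44.2 scaled reads in BAT, against 157 in eWAT and 103 in iWAT. With 3 libraries many genes lie this close, and the likeness is a description only.

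The other genes of the pathway numbered 87, in lists of receptors, cyclases, G protein subunits, phosphodiesterases, protein kinase A with its anchors, cAMP effectors and desensitisation factors. Of these, 75 had a region and 70 one within 50 kb, as had 13381 of the 14265 genes with a region. Such a region was on the BAT list at 43 genes, the eWAT list at 63 and the iWAT list at 67. The share of all genes on each list was not taken, so these counts show no preference. With BAT over eWAT 11 of the 75 were higher (14.7%, against 11.3% of all genes) and 4 lower (5.33%, against 5.87%). With BAT over iWAT 9 were higher (12%, against 13.2%) and 6 lower (8.00%, against 5.07%). The authors' scale gave 2 higher and 53 lower with BAT over eWAT (2.67% and 70.7%, against 1.90% and 66.5%), and 0 higher and 46 lower with BAT over iWAT (61.3% lower, against 60.8%). With eWAT over iWAT 4 were higher (5.33%, against 10.4%) and 11 lower (14.7%, against 11.5%). Their median log2 ratios were 0.25, 0.05 and −0.07 in that order, beside 0.10, 0.14 and 0.00 over all genes, where genes with 0 BAT reads stand at 3 reads. The highest values within 50 kb, as the mean of the 3 depots, were at the calcium-dependent phosphodiesterase Pde1a (608), the glucagon receptor Gcgr (531), the phosphodiesterase Pde4b (472), the kinase A regulatory subunit Prkar2b (411) and the transcription factor Creb5 (373).

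Gcgr, the receptor through which glucagon raises cAMP, had 669 scaled reads in BAT, against 568 in eWAT and 357 in iWAT, and its log2 ratio was 1.85 for BAT over eWAT and 2.49 over iWAT, or 0.24 and 0.91 on the authors' scale. Adra2c, another inhibitory α2 receptor, had 69.1 in BAT, against 98.9 in eWAT and 35.7 in iWAT, with a ratio of 2.54 for BAT over iWAT (0.95 on the authors' scale) and 1.32 for eWAT over iWAT. Grk2, a kinase that switches off activated receptors, had 96.8 in BAT, against 88.3 in eWAT and 62.0 in iWAT, with 2.23 for BAT over iWAT (0.64 on the authors' scale). For BAT over eWAT the highest called ratios were 4.84 at the G protein gene Gnao1, 3.26 at the transcription factor Atf2 and 2.71 at the cAMP-induced nuclear receptor Nr4a2. Atf2 was not called on the authors' scale, at 1.65. Gnao1 and Atf2 rested on few reads, with 5.30 and 6.18 scaled reads in eWAT.

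Among the genes lower in BAT against eWAT were the parathyroid hormone receptor Pth1r (−1.63), the factor Creb3l2 (−1.40) and the cAMP-activated exchange factor Rapgef4 (−1.16). Against iWAT they included Pth1r (−1.44), Creb3l2 (−1.20) and the kinase A subunit Prkar1b (−1.17). Pth1r had 16.6 scaled reads in BAT, against 157 in eWAT and 135 in iWAT, so it was lower in BAT on the authors' scale as well. Between the white depots, the kinase A inhibitor Pkia had 23.8 scaled reads in eWAT, against 179 in iWAT, for a log2 ratio of −3.05, followed by Gnao1 at −3.00 and the phosphodiesterase Pde1c at −2.57. The highest were the arrestin gene Arrb2 at 2.56 and Pde1b at 2.26, with 27.4 and 33.6 scaled reads in eWAT, against 4.20 and 6.31 in iWAT.

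By list, the cAMP effectors and CREB factors had 4 of 13 genes higher (30.8%, against 11.3% of all genes) and 2 lower (15.4%, against 5.87%) with BAT over eWAT, and 4 higher (30.8%, against 13.2%) and 1 lower (7.69%, against 5.07%) with BAT over iWAT. On the authors' scale they had 1 higher and 9 lower against eWAT (7.69% and 69.2%, against 1.90% and 66.5% of all genes). Against iWAT they had 0 higher and 8 lower there (0% and 61.5%, against 1.97% and 60.8%). Protein kinase A and its anchors had 3 of 13 genes lower (23.1%, against 11.5%) and 0 higher with eWAT over iWAT, namely Pkia, Prkacb and Prkar1b. The other phosphodiesterases had 1 of 15 higher (6.67%, against 10.4%) and 3 lower (against 11.5%) in that comparison. Relative to the median gene, the other adenylyl cyclases had 0 of 8 genes called in either comparison with BAT. Of all genes, 11.3% were higher and 5.87% lower with BAT over eWAT, and 13.2% and 5.07% with BAT over iWAT. At such shares, 0 of 8 genes does not set Adcy3 apart from the other cyclases. Of these 8 genes, 8 were lower in BAT against eWAT on the authors' scale and 6 against iWAT (100% and 75%, against 66.5% and 60.8% of all genes). No list was tested as a set.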

How the data were processed

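TLE3 was measured by ChIP-seq in 3 depots, with an input from iWAT. The submitters' processing notes name STAR, HOMER and mm9 with no version or role. How peaks were called is not stated there or in the labels. Per the file headers, each deposited table gives regions, annotation, nearest gene and values. The deposited values are a signal, reads that the authors brought to a common library total, and the deposited peak score was 0 throughout and was not used. The 3 tables were joined by region name with duplicates dropped. Every value was a whole multiple of 1 read (100% within 0.1 read), and those reads were tested. List limits were read from the values.

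Regions and genes were compared with the exact two-sided binomial test (scipy 1.17.1, Python 3.11.15), adjusted over all regions or genes, with Clopper-Pearson intervals (95%) and 0 reads set to 3. Intervals and limits cover counting error only. The scripts were tested on simulated data. Alternatives covered scaling, filters, distance and list limits.

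The 9 genes, the gene lists and the rules were chosen with earlier results of these data known. Named regions are each gene's strongest and nearest region and up to 3 with the largest called ratios, and others are examples chosen after their values were seen. Of the other pathway genes, the text names the 5 highest by summed value and up to 3 per comparison and direction by called ratio.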

Additional observations from a re-analysis of the deposited data

How the results depend on the processing

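With 1 library per depot, p-values carry no replicate spread, and BAT, at 2.77 scaled reads per read, leaves differences at weak regions not detectable. No paired analysis was possible because no depot has more than 1 library.

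The cause of the changes below was not tested, beyond fewer regions entering the filtered settings. Member regions called with eWAT over iWAT were 15 higher and 17 lower. Among the 68 regions averaging 15 scaled reads or more they were 6 and 10 (8.82% and 14.7%, against 10.5% and 19.5% of all such regions). Within 50 kb they were 6 and 3 of 39 (15.4% and 7.69%, against 17.2% and 19.1%), and with at least 30 in either library 9 and 9 of 58 (15.5% each, against 13.4% and 23.0%). With adjusted p alone 23 were higher (24.2%, against 23.2%). With BAT over eWAT 13 were higher and 1 lower, against 5 and 40 on the authors' scale and 6 and 10 on the scale of regions listed in all 3 depots (6.32% and 10.5%, against 4.96% and 14.4%). On the scale of all regions, and within 50 kb, 0 were lower (against 1.38% and 3.58%). With BAT over iWAT 15 were higher and 1 lower, against 3 and 32 on the authors' scale and 9 and 10 on that of the shared regions (9.47% and 10.5%, against 4.79% and 19.4%). On that of all regions 24 were higher (25.3%, against 14.5%), and within 50 kb 8 were higher and 0 lower (20.5% and 0%, against 10.2% and 2.60%).

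Of the genes, 2 were higher in each comparison with BAT, but 0 on the authors' scale, where 6 were lower against eWAT and 5 against iWAT. On the scale of the strongest regions 1 was higher in each (11.1%, against 8.41% for eWAT and 10.9% for iWAT), and within 10 kb 0 of 3 (against 13.7% and 14.9%). Regions on the lists numbered 32 in BAT, 77 in eWAT and 67 in iWAT. At a limit of 30 scaled reads they were 18, 47 and 40, and the share of all regions at that limit was not taken. In lists cut to the length of the BAT list, 15042 regions or 21.6% of all regions, eWAT had 20 and iWAT 18. These counts are not above that share. Within 50 kb, where 39 regions remained, the listed regions numbered 17 in BAT, 33 in eWAT and 25 in iWAT. Those shares were 43.6%, 84.6% and 64.1%, against 22%, 76.5% and 69.8% of all regions within 50 kb. TLE3 over input was 12.2 in BAT, 25.3 in eWAT and 22.4 in iWAT as a sum, and 4.25, 13.6 and 11.6 as the median region with input at no less than 3 reads, an alternative chosen after seeing the data.

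Of the log2 ratios of the named regions and genes, 27 changed sign on the authors' scale, and 14 of them were called on neither scale, Adrb1 for BAT over iWAT among them. The 13 called on at least 1 of the scales turned negative. For BAT over eWAT they were −0.13 at the Adcy3 region 25.2 kb away, and −0.52 at Adrb1, −1.08 at Adra1b, −1.49 at Pde3b and −1.51 at Pde4d as genes. For BAT over iWAT they were −0.22 at that Adcy3 region, −0.25 at 85.3 kb in Adra1a, −1.32 at 199 kb from Adra2a, −1.41 at 51.6 kb in Pde3b, −1.12 at 10.1 kb from Adrb3, and −1.20 at Adrb3, −0.46 at Adra1b and −1.47 at Adra2a as genes. The remaining single values kept their side of the threshold in 570 settings, passed it in 39 and lost it in 19. Adding gene-body regions, also chosen after seeing the data, changed no gene's call.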
